A study of Mus musculus with 20 samples.

Results

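The insulin-like growth factor (IGF) axis is a set of secreted ligands, their receptors and the proteins that bind the ligands outside cells. It is described here through 9 genes that were chosen by name: the ligand gene Igf1, the receptor genes Igf1r and Igf2r, and the binding protein genes Igfbp2, Igfbp3, Igfbp4, Igfbp5, Igfbp6 and Igfbp7. The choice was made with earlier results of these data known. Each symbol was matched to its Ensembl identifier, and all 9 were found among the 55401 genes of the count table, of which 21897 are protein-coding. IGF-I acts through the receptor tyrosine kinase made from Igf1r, which signals through PI3K and AKT to growth, protein synthesis and survival, whereas the Igf2r protein takes up IGF-II for breakdown and carries enzymes to lysosomes. The binding proteins hold IGFs in the extracellular space and can either shield them from the receptor or release them when a protease cleaves the binding protein. In the cerebellum, IGF-I is known as a survival factor for neurons, and the genes of the axis are divided among neurons, glia, vessels, meninges and choroid plexus.

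RNA from the cerebellum of 20 C57BL/6J mice was sequenced, with 1 mouse per library, in 5 groups. At 9w, 3 WT mice had received AAV-shA4 and 3 WT mice were untreated. At 25w, 5 SCA7 140Q/5Q mice had received AAV-shA4, 5 SCA7 140Q/5Q mice had received AAV-shSCR and 4 WT mice were untreated. SCA7 140Q/5Q mice are knock-in animals with an expanded CAG repeat in 1 allele of Atxn7, a model of spinocerebellar ataxia 7. The vector was AAV PHP.eB with eGFP under a CMV promoter and an shRNA under an H1 promoter, where shA4 is directed at CAG repeats and shSCR is a scrambled control. By the study's account the vector reached most Purkinje cells (PCs), some cells of the molecular layer and many cells of the cerebellar nuclei but few granule neurons, the late mice were male, and untreated animals were given saline. The sex of the early mice was not stated. Weeks are written here as in the labels. The study's text counts time from injection of young mice, with the number of weeks of the label for the early groups and a slightly smaller number than the label for the late ones. It gives the age of the mice at injection, which the labels do not. No SCA7 mouse without vector was sequenced, so genotype and vector cannot be told apart in either comparison with untreated WT mice at 25w. Total counts per library ranged from 36245752 to 39208298 in AAV-shA4-treated WT mice, from 47455917 to 49212593 in untreated WT mice at 9w, from 39036803 to 54570503 in untreated WT mice at 25w, from 33758498 to 40621179 in AAV-shSCR-treated SCA7 mice and from 31465586 to 44708557 in AAV-shA4-treated SCA7 mice.

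All 9 genes were measured in every library and passed the filter on low counts in every comparison. Levels are given as CPM, the count of a gene scaled to the library total with TMM factors over the 20 libraries, and a gene was called when its edgeR p adjusted over all protein-coding genes tested was under 0.05 and its fold change was above 1.3 in either direction. Levels of different genes can be set side by side only per kilobase (kb) of transcript, and the order depended on the length used. Per kb of median transcript length, the mean level in untreated WT mice at 25w was 103 CPM per kb for Igf2r, 65.5 for Igfbp2, 54.0 for Igfbp5 and 50.4 for Igf1r. The remaining genes lay lower, from 18.4 CPM per kb for Igfbp6 through 18.2 for Igfbp4, 14.7 for Igfbp7 and 9.52 for Igfbp3 to 6.51 for Igf1. Per kb of all exons of a gene joined, Igfbp5 came first at 46.3 CPM per kb and Igfbp2 next at 35.2, while Igf2r stood at 8.91 and Igf1r at 5.99. Igf1 was the lowest of the 9 on both scales.

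The members called in SCA7 mice were genes of binding proteins, and neither the ligand gene nor a receptor gene was among them. In AAV-shSCR-treated SCA7 mice against untreated WT mice, 2 of 9 genes were called, Igfbp5 and Igfbp6, both lower, where 4.02% of the 14862 genes tested were called. In AAV-shA4-treated SCA7 mice against the same untreated WT mice, 3 of 9 were called, Igfbp5 and Igfbp6 lower and Igfbp4 higher, where 3.45% of all genes were called. These comparisons share the 4 WT mice, so their values are given side by side and not as separate evidence. Because the members were chosen with earlier results of these data known, their shares and medians beside those of all genes are description and not a test. Between the SCA7 groups, 0 of 9 were called by edgeR, where 0% of all genes were, with 1 of the 9 (Igfbp5) at an unadjusted p under 0.05 and 0 called by DESeq2. Over all genes in that comparison, 1222 were at an unadjusted p under 0.05 and DESeq2 called 4. AAV-shA4 in WT mice at 9w gave 0 of 9 by edgeR and 0 by DESeq2, with 3 at an unadjusted p under 0.05, where edgeR called 0.0543% of 14733 genes, which is 8 genes, and DESeq2 called 53. From 9w to 25w in untreated WT mice, 1 of 9 was called (Igfbp7, lower), where 5.27% of 15095 genes were. Groups that did not overlap were found for 3 of 9 genes at 9w, 3 with AAV-shSCR against WT, 2 with AAV-shA4 against WT, 0 between the SCA7 groups and 2 with age, where the shares over all genes tested were 16%, 16.8%, 13.4%, 1.49% and 33.4%. The median absolute log2 fold change of the 9 genes was 0.21 in AAV-shSCR-treated and 0.30 in AAV-shA4-treated SCA7 mice against WT, beside 0.09 and 0.08 over all genes tested, while their signed medians of -0.04 and -0.04 lay near those of all genes at 0.0017 and 0.0061. In the other comparisons the median absolute values were 0.13 at 9w, 0.09 between the SCA7 groups and 0.13 with age, beside 0.08, 0.05 and 0.13 over all genes.

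**Figure D1:**
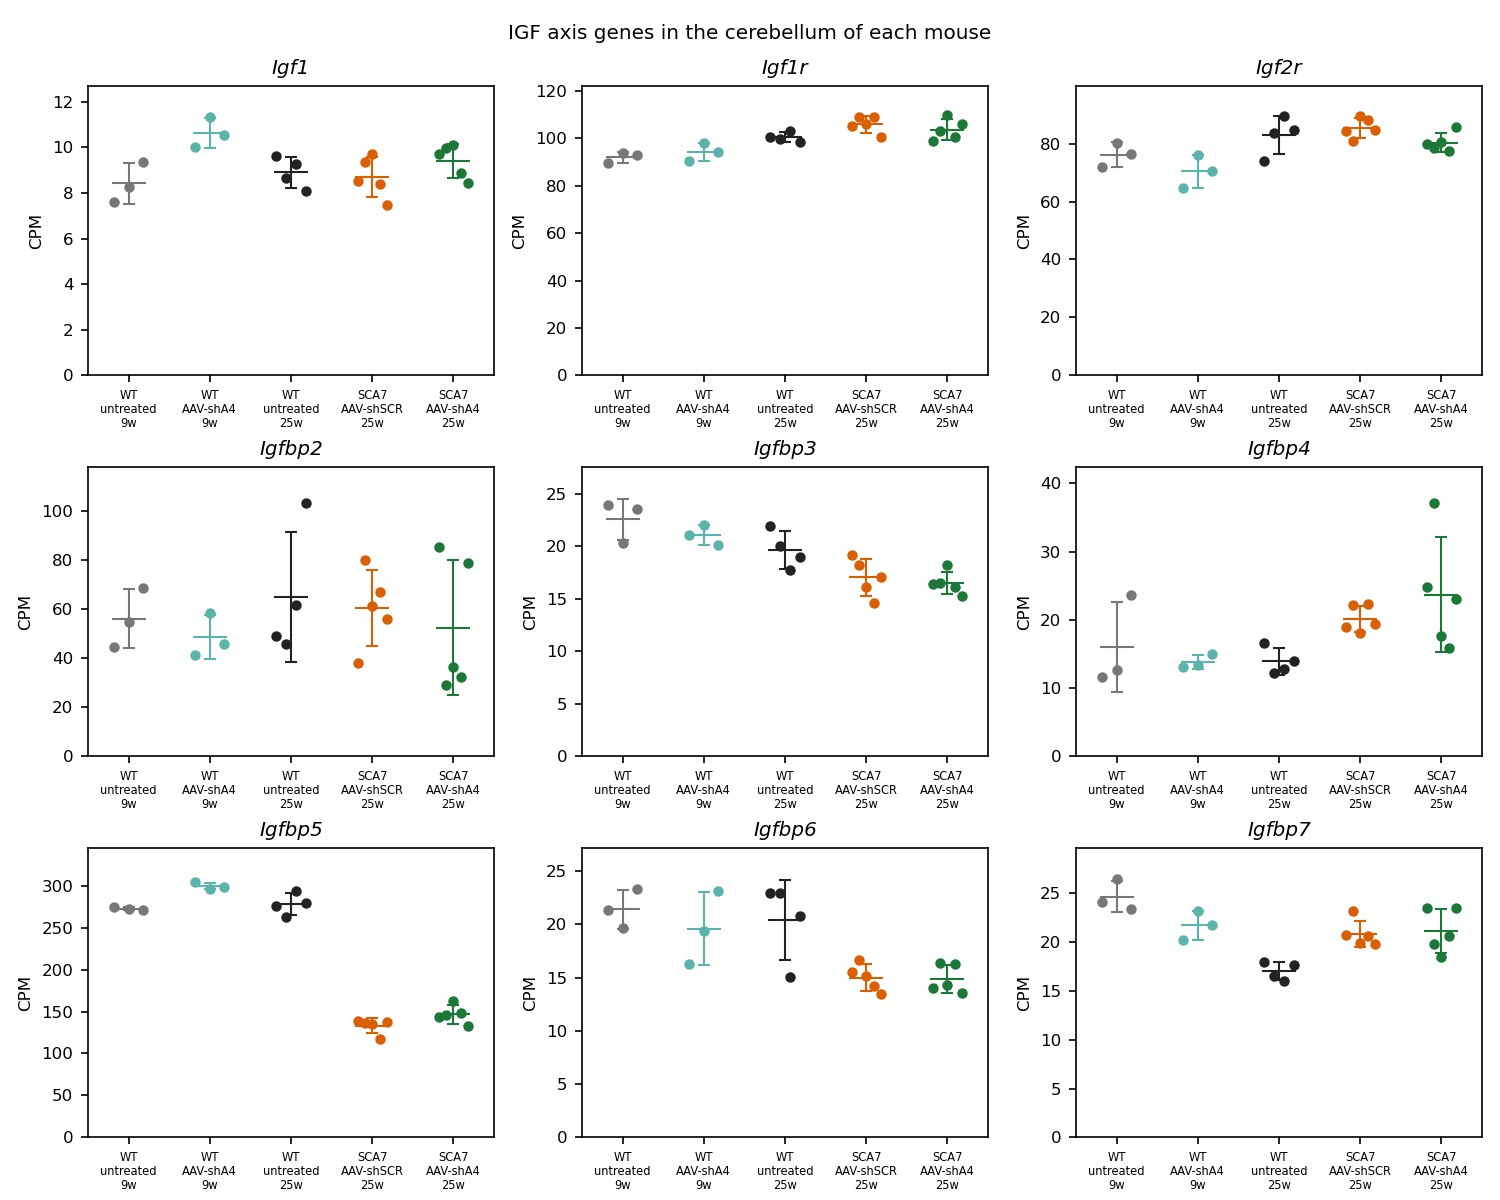
Level of each of the 9 IGF axis genes in the cerebellum of each mouse, in CPM on linear axes that start at 0, with 1 point per mouse, a horizontal mark at the group mean and bars of 1 SD. The 10 SCA7 mice lie between 117 and 162.6 CPM for Igfbp5, below all 10 WT mice, which lie between 263 and 304 CPM.

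Igf1, which encodes the ligand IGF-I, was present at a low level that varied little among the late groups. It measured 9.62, 8.65, 9.28 and 8.08 CPM in untreated WT mice at 25w, 8.52, 9.38, 9.72, 8.38 and 7.47 CPM in AAV-shSCR-treated SCA7 mice, and 9.72, 9.95, 10.1, 8.86 and 8.42 CPM in AAV-shA4-treated SCA7 mice. The 3 late groups overlapped, with log2 fold changes of -0.04 and 0.08 against WT (adjusted p = 0.834 and 0.614). The sign in AAV-shSCR-treated SCA7 mice turned to 0.01 without AAV-shSCR replicate 5 and to 0.0045 without untreated WT replicate 1. At 9w, untreated WT mice had 7.61, 8.27 and 9.37 CPM and AAV-shA4-treated WT mice 10, 11.3 and 10.5 CPM. The 3 treated mice were all above the 3 untreated mice, yet the log2 fold change of 0.33 ± 0.105 (SE) had an adjusted p of 0.31. Igf1os, the antisense gene that overlaps Igf1, stayed between 0 and 0.0567 CPM in the 20 libraries.

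The receptor genes were called in no comparison. Igf1r, the IGF-I receptor, ranged from 98.4 to 103 CPM in untreated WT mice at 25w, from 100 to 109 CPM in AAV-shSCR-treated SCA7 mice and from 98.7 to 110 CPM in AAV-shA4-treated SCA7 mice, and the groups overlapped. Its log2 fold change against WT was 0.08 (95% confidence interval 0.0036 to 0.15, adjusted p = 0.152) with AAV-shSCR and 0.04 (-0.03 to 0.12, adjusted p = 0.457) with AAV-shA4. The 4 untreated WT mice at 25w were above the 3 untreated WT mice at 9w (89.5, 93.7 and 92.9 CPM), a difference of 0.13 ± 0.0391 (adjusted p = 0.0213) that was below the fold limit. Igf2r, the uptake receptor for IGF-II, overlapped among the late groups at 73.9 to 89.4, 80.8 to 89.5 and 77.3 to 85.6 CPM in untreated WT, AAV-shSCR-treated and AAV-shA4-treated SCA7 mice. Its log2 fold changes there were 0.05 and -0.04, and the positive value turned to -0.0066 without untreated WT replicate 1. Airn, the noncoding gene that overlaps Igf2r on the other strand, ranged from 13.8 to 25.1 CPM over the 20 libraries, and the strand setting of the counting was not stated.

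Igfbp5 encodes a binding protein that attaches to extracellular matrix and can hold IGFs near cells. It was the member with the largest difference in SCA7 mice. It measured 276, 263, 294 and 279 CPM in untreated WT mice at 25w, 139, 136, 135, 117 and 138 CPM in AAV-shSCR-treated SCA7 mice, and 144.0, 145.3, 162.6, 148.4 and 132.2 CPM in AAV-shA4-treated SCA7 mice. At 9w it was 275, 273 and 271 CPM in untreated WT mice and 304, 296 and 298 CPM in AAV-shA4-treated WT mice. Every SCA7 mouse was far below every WT mouse, and within each WT group the animals differed little. Among AAV-shSCR-treated SCA7 mice, replicate 4 was the lowest and stood apart from the other 4. The order of group means was AAV-shA4-treated WT at 9w (300 ± 4.09 CPM, SD, n = 3), untreated WT at 25w (278 ± 12.9, n = 4), untreated WT at 9w (273 ± 2.21, n = 3), AAV-shA4-treated SCA7 (147 ± 10.9, n = 5) and AAV-shSCR-treated SCA7 (133 ± 8.96, n = 5). In that order, the untreated WT groups overlapped each other and the SCA7 groups overlapped each other, whereas the other neighbours did not overlap.

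Relative to untreated WT mice at 25w, Igfbp5 fell by 1.06 ± 0.0553 on the log2 scale (SE, adjusted p = 3.25e-09, 95% confidence interval -1.18 to -0.95) in AAV-shSCR-treated SCA7 mice, to 47.8% of the WT mean. In AAV-shA4-treated SCA7 mice it fell by 0.92 ± 0.0551 (adjusted p = 1.29e-08, interval -1.04 to -0.81), to 52.7% of the WT mean. By p it ranked 5 among the 14862 genes in the first comparison and 10 in the second, and by size of the change it ranked 151 in the first. The SCA7 groups themselves differed by 0.14 ± 0.053 (interval 0.03 to 0.25, adjusted p = 0.537), higher with AAV-shA4 and not called. In CPM that difference was 13.7 on a gap of 145 between untreated WT and AAV-shSCR-treated SCA7 mice, or 9.43% of the gap. Only the lowest AAV-shA4-treated mouse (132 CPM) lay within the range of the AAV-shSCR-treated mice. AAV-shA4 in WT mice at 9w gave 0.13 ± 0.0441 (adjusted p = 0.32), with the 3 treated mice above the 3 untreated ones. From 9w to 25w in untreated WT mice the difference was 0.03 ± 0.0563 (adjusted p = 0.769), which turned to -0.00078 without untreated WT replicate 3 of 25w.

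A test that took the spread of Igfbp5 alone, the exact two-sided permutation of log2 CPM over mice, was run in the 5 comparisons. It was run for no other member, so its adjustment takes no account of the choice of Igfbp5 among the members. The exact p was 0.0159 (0.0398 after Benjamini-Hochberg over the 5) for each SCA7 group against untreated WT mice, the smallest value that 5 against 4 mice allow. Between the SCA7 groups the exact p was 0.0476 (0.0793 adjusted), where the smallest possible was 0.00794. At 9w it was 0.1 (0.125 adjusted), which is the smallest that 3 against 3 mice can give, so that design cannot reach 0.05. With age the exact p was 0.629 (0.629 adjusted), where the smallest possible was 0.0571.

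**Figure D2:**
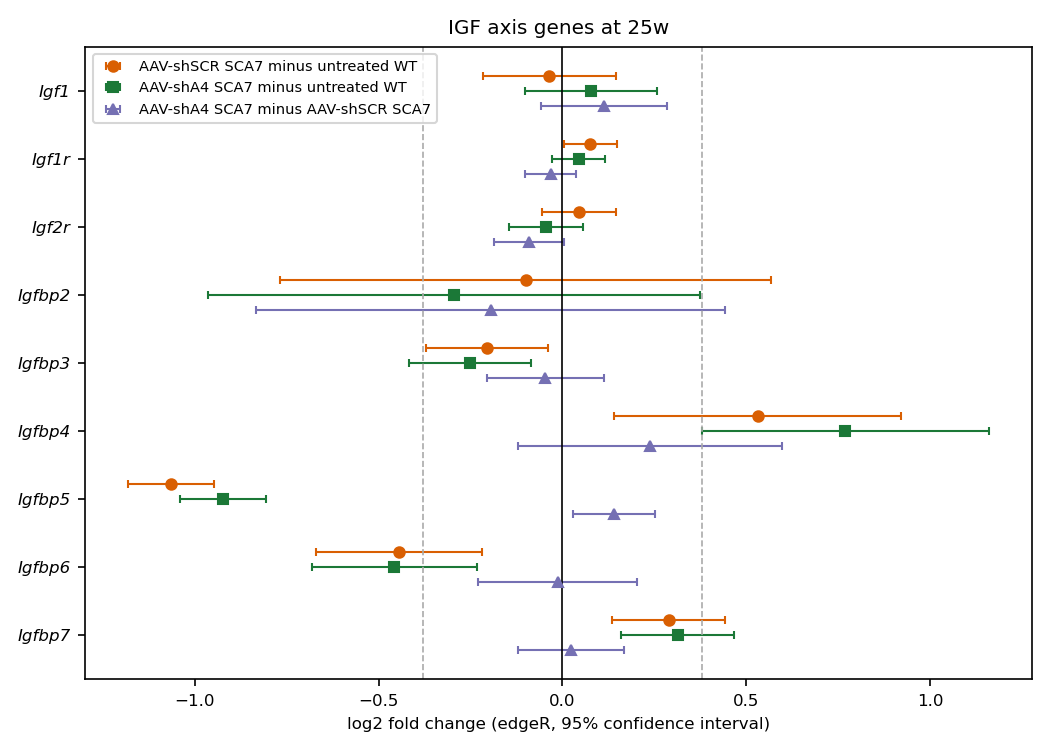
Log2 fold change of the 9 genes at 25w with its 95% confidence interval from edgeR, for AAV-shSCR-treated and AAV-shA4-treated SCA7 mice against the 4 untreated WT mice and for AAV-shA4-treated minus AAV-shSCR-treated SCA7 mice (n = 5 each). Dashed lines mark the fold limit of 1.3, and the Igfbp5 intervals of -1.18 to -0.95 and -1.04 to -0.81 lie farthest from 0.

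Igfbp6, whose protein binds IGF-II in preference to IGF-I, was also lower in SCA7 mice but with a smaller change. It measured 23, 22.9, 15 and 20.8 CPM in untreated WT mice at 25w, 15.5, 16.7, 15.1, 14.2 and 13.4 CPM in AAV-shSCR-treated SCA7 mice, and 14, 16.3, 14.3, 16.2 and 13.5 CPM in AAV-shA4-treated SCA7 mice. The groups overlapped because untreated WT replicate 3 (15 CPM) lay among the SCA7 mice, while the other 3 WT mice were above all 10 of them. It fell by 0.44 ± 0.106 (adjusted p = 0.00876) with AAV-shSCR and by 0.46 ± 0.106 (adjusted p = 0.00799) with AAV-shA4, and the SCA7 groups differed by -0.01 ± 0.102 (adjusted p = 0.985). At 9w it ranged from 19.6 to 23.3 CPM in untreated and from 16.3 to 23.1 CPM in AAV-shA4-treated WT mice, which overlapped.

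Igfbp4, whose protein is cleaved by the protease pappalysin 1 to release IGFs, ran the other way. It measured 16.7, 12.3, 12.8 and 13.9 CPM in untreated WT mice at 25w, 18.9, 22.1, 18.1, 22.3 and 19.4 CPM in AAV-shSCR-treated SCA7 mice, and 24.8, 37.2, 17.6, 15.9 and 23.1 CPM in AAV-shA4-treated SCA7 mice. All 5 AAV-shSCR-treated mice were above the 4 WT mice, whereas the AAV-shA4-treated mice were spread widely, from replicate 4 within the WT range to replicate 2 far above all others. Replicate 2 also had the highest summed microglia markers (258 CPM) and astrocyte markers (3560 CPM) of its group, and the lowest choroid plexus markers (51.2 CPM). In AAV-shSCR-treated mice the highest microglia sum (257 CPM) was in replicate 1, which had 18.9 CPM of Igfbp4. The increase of Igfbp4 was called in AAV-shA4-treated SCA7 mice, at 0.77 ± 0.184 (adjusted p = 0.00983), and remained so when any 1 of the 14 libraries was left out (0.55 to 0.88). In AAV-shSCR-treated SCA7 mice the value of 0.53 ± 0.185 missed the limit (adjusted p = 0.0627). It passed with only the groups compared in the fit (adjusted p = 0.00158, where the settings ranged from that value to 0.129), and without AAV-shA4 replicate 2 (0.53), AAV-shA4 replicate 4 (0.53) or untreated WT replicate 1 (0.63). The SCA7 groups differed by 0.24 (adjusted p = 0.735), a value that was 0.02 without AAV-shA4 replicate 2 and at most 0.35, without AAV-shA4 replicate 4. At 9w untreated WT mice had 11.7, 12.7 and 23.6 CPM and AAV-shA4-treated WT mice 13.1, 13.4 and 15 CPM, and the log2 fold change of -0.22 turned to 0.18 without untreated replicate 3.

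Igfbp7, a binding protein relative of low affinity for IGF that is prominent in vessels, was higher in SCA7 mice and fell with age in WT mice. It measured 17.9, 16.6, 16 and 17.7 CPM in untreated WT mice at 25w, 20.7, 23.2, 19.9, 20.6 and 19.8 CPM in AAV-shSCR-treated SCA7 mice, and 23.5, 19.8, 18.4, 20.6 and 23.4 CPM in AAV-shA4-treated SCA7 mice. All 10 SCA7 mice were above the 4 WT mice, with differences of 0.29 ± 0.0726 (adjusted p = 0.0118) and 0.31 (adjusted p = 0.0078) that passed the p limit but not the fold limit. At 9w it was 24.1, 26.4 and 23.4 CPM in untreated and 20.2, 23.2 and 21.8 CPM in AAV-shA4-treated WT mice. The untreated mice of 9w were thus above both the treated mice of 9w and the untreated mice of 25w without overlap. The drop from 9w to 25w was called, at -0.53 ± 0.0794 (adjusted p = 8.13e-05), and the effect of AAV-shA4 at 9w was not, at -0.18 (adjusted p = 0.407). The labels do not say whether the early and late libraries were made or sequenced together. Igfbp7 overlaps the protein-coding gene Polr2b on the other strand, so the unstated strand setting of the counting bears on it as on Igf2r. Within groups Igfbp7 also ran with Igfbp2 (r = 0.68 over the 14 late libraries after removal of group means) and, in some groups only, with choroid plexus marker RNA. The AAV-shSCR-treated mouse with the most of that RNA (replicate 2) and the AAV-shA4-treated mice with the most (replicates 1 and 5) had the highest Igfbp7 of their groups, as did the AAV-shA4-treated WT mouse of 9w with the most (replicate 2). In untreated WT mice the mouse with the most did not at 25w, and at 9w it (replicate 3) had the lowest Igfbp7 of its group. The part of choroid plexus tissue in the Igfbp7 values was not tested.

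Igfbp3, the main carrier of IGF in blood, showed small differences in mean from group to group. It ranged from 20.3 to 23.9 CPM in untreated WT mice at 9w, 20.1 to 22 in AAV-shA4-treated WT mice, 17.7 to 21.9 in untreated WT mice at 25w, 14.6 to 19.2 in AAV-shSCR-treated and 15.3 to 18.2 in AAV-shA4-treated SCA7 mice. Each neighbouring pair in that order overlapped. Its log2 fold change against WT was -0.21 (adjusted p = 0.0887) with AAV-shSCR and -0.25 (adjusted p = 0.0419) with AAV-shA4, the latter under the fold limit.

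Igfbp2, a binding protein with high affinity for IGF-II that is abundant in choroid plexus, differed more between animals than between groups. It measured 49.1, 45.9, 61.5 and 103 CPM in untreated WT mice at 25w, 38.2, 79.9, 61.1, 67.0 and 55.9 CPM in AAV-shSCR-treated SCA7 mice, and 85.4, 29.2, 36.5, 32.4 and 78.9 CPM in AAV-shA4-treated SCA7 mice. In the early mice it was 44.7, 54.9 and 68.5 CPM in untreated and 41.3, 58.6 and 45.8 CPM in AAV-shA4-treated WT mice. All groups overlapped, and the log2 fold changes of -0.10 and -0.29 against WT (SE 0.315 and 0.316) turned to 0.21 and 0.02 without untreated WT replicate 4, the former also to 0.03 without AAV-shSCR replicate 1. The summed level of 8 choroid plexus markers moved with it. That sum was 1180, 1060, 1810 and 3890 CPM in untreated WT mice at 25w, 659, 2960, 1960, 2040 and 1770 CPM in AAV-shSCR-treated SCA7 mice, and 3340, 51.2, 533, 347 and 2930 CPM in AAV-shA4-treated SCA7 mice. In the early mice the sum was 886, 1340 and 1960 CPM in untreated and 968, 1820 and 656 CPM in AAV-shA4-treated WT mice. In 5 of 5 groups the mouse with the most choroid plexus marker RNA had the highest Igfbp2, and in 4 of 5 the mouse with the least had the lowest. The most abundant of the markers was Ttr, which ranged from 21.6 to 3120 CPM within the AAV-shA4-treated SCA7 group, and 0 of 8 markers were called by edgeR in any comparison, with 0 at an unadjusted p under 0.05. Their log2 fold changes were all 8 negative with AAV-shA4 against WT (median -0.58) and against AAV-shSCR (-0.36). In addition, 7 of 8 were negative with AAV-shSCR against WT (-0.20), 6 of 8 were negative at 9w (-0.21) and all 8 were positive with age (0.55). The part of choroid plexus tissue in the Igfbp2 values was not tested.

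**Figure D3:**
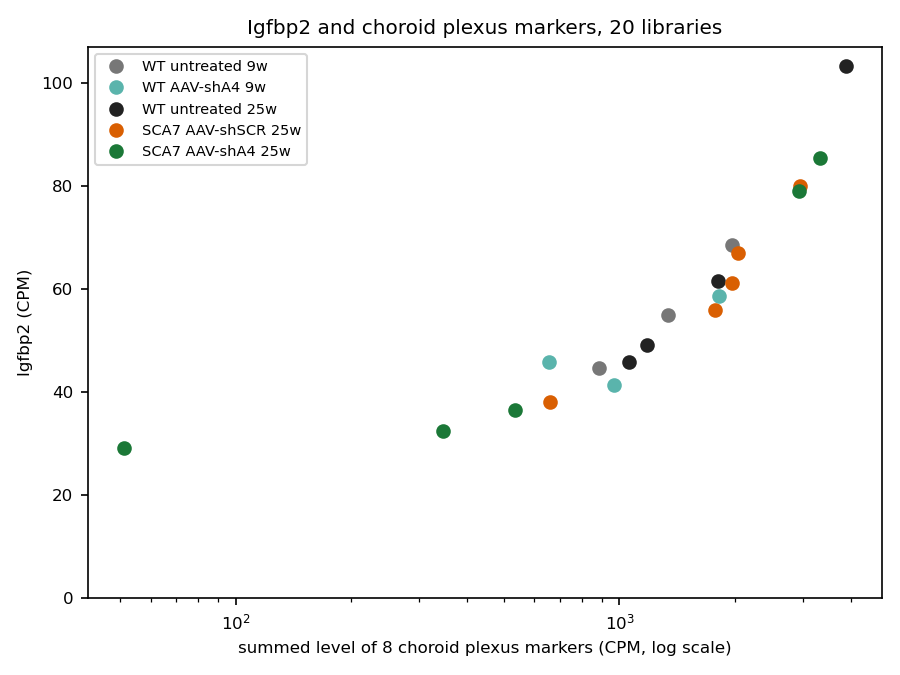
Igfbp2 in CPM on a linear axis against the summed level of 8 choroid plexus markers in CPM on a log axis, with 1 point for each of the 20 mice, coloured by group. Igfbp2 runs from 29.2 CPM in the mouse with 51.2 CPM of choroid plexus marker RNA to 103 CPM in the mouse with 3890 CPM, and the groups are intermingled.

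Around these 9 genes, a list of 59 further genes of the pathway was examined, of which 50 were tested at each week and 52 in the comparison of ages. Ins1, Ins2, Igfals, Pappa2, Adam28, Irs4 and Igf2bp1 were under the filter throughout, and Igfbpl1 and Igf2bp3 in all comparisons but that of ages. Of the 50, AAV-shSCR-treated SCA7 mice against WT had 2 called, 1 higher (Pappa) and 1 lower (Eif4ebp1), and AAV-shA4-treated SCA7 mice against WT had 1 called, lower (Stc2). These are 4% and 2% of the list, beside 4.02% and 3.45% of all genes, so the list held no larger share of called genes than the table. The medians of the list were 0.0066 and 0.01, beside 0.0017 and 0.0061 over all genes. Between the SCA7 groups and at 9w 0 were called by edgeR and 0 by DESeq2, with 6 at an unadjusted p under 0.05 in each. Of the other ligands, Igf2, which encodes IGF-II, ranged from 3.33 to 6.06 CPM in the late libraries, and Ins1 was at 0 in all 20.

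Pappa, which encodes the protease that cleaves Igfbp4 and Igfbp5 proteins, measured 8.36, 12.1, 10.5 and 11.5 CPM in untreated WT mice at 25w, 18.2, 18.6, 23.3, 24.2 and 16 CPM in AAV-shSCR-treated SCA7 mice, and 12.7, 13.2, 16.4, 11.7 and 17.2 CPM in AAV-shA4-treated SCA7 mice. All 5 AAV-shSCR-treated mice were above the 4 WT mice, and the AAV-shA4-treated mice lay between, overlapping both. The log2 fold change against WT was 0.92 ± 0.143 (adjusted p = 0.000272) with AAV-shSCR and 0.43 (adjusted p = 0.0581) with AAV-shA4. The latter was called by DESeq2 (adjusted p = 0.0188, where the settings ranged from that value to 0.0906) and without AAV-shA4 replicate 1 (0.47), AAV-shA4 replicate 4 (0.49) or AAV-shSCR replicate 5 (0.43). The difference between the SCA7 groups was -0.50 ± 0.132 and was not called, with an adjusted p of 0.43. Stc2, whose protein inhibits that protease, measured 5.70, 4.19, 4.20 and 4.70 CPM in untreated WT mice, 4.16, 4.56, 4.47, 4.76 and 3.88 CPM in AAV-shSCR-treated SCA7 mice, and 3.66, 3.47, 3.76, 3.17 and 3.13 CPM in AAV-shA4-treated SCA7 mice. The AAV-shA4-treated mice were below both other late groups without overlap. Against WT the change with AAV-shA4 was -0.45 ± 0.106 (adjusted p = 0.0084), which dropped under the fold limit at -0.34 without untreated WT replicate 1, and against AAV-shSCR-treated mice it was -0.34 (adjusted p = 0.483). Htra1, another protease of binding proteins, was lower by less than the fold limit in both, at -0.19 (adjusted p = 0.0335) with AAV-shSCR and -0.18 (adjusted p = 0.0426) with AAV-shA4.

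Downstream of the receptor, 1 gene was called in SCA7 mice. Eif4ebp1, a repressor of translation that mTOR inactivates, was 2.21, 2.26, 2 and 2.5 CPM in untreated WT mice at 25w and 1.71, 1.33, 1.72, 1.57 and 1.90 CPM in AAV-shSCR-treated SCA7 mice, all 5 below the 4 WT mice. AAV-shA4-treated SCA7 mice, at 1.67, 1.94, 1.81, 1.94 and 1.71 CPM, were likewise all below the WT mice, with a difference of -0.31 (adjusted p = 0.118) that was not called. The early mice, at 3.03, 2.2 and 2.89 CPM untreated and 1.90, 1.79 and 2.21 CPM with AAV-shA4, overlapped, with -0.46 (adjusted p = 0.385). The called change with AAV-shSCR, -0.44 ± 0.124 (adjusted p = 0.0223), was no longer called without AAV-shSCR replicate 2 (-0.38), AAV-shSCR replicate 4 (-0.43) or untreated WT replicate 4 (-0.39). By adjusted p alone, without the fold limit, 11 of the 50 genes passed in AAV-shSCR-treated and 7 in AAV-shA4-treated SCA7 mice, where 15.5% and 13.6% of all genes tested passed. The 7 of 50 are near that share. Among the genes that passed were Pik3r1, the regulatory subunit of PI3K, higher by 0.28 (adjusted p = 1.7e-05) and 0.22 (adjusted p = 0.000215), and the kinase gene Akt2, at -0.23 (adjusted p = 0.00715) and -0.19 (adjusted p = 0.0222). Grb10, an adaptor that dampens receptor signalling, was higher by 0.17 (adjusted p = 0.0336) and 0.25 (adjusted p = 0.00418). Foxo1, a transcription factor restrained by AKT, was higher by 0.34 (adjusted p = 0.0109) with AAV-shA4. With AAV-shSCR it was higher by 0.20 (adjusted p = 0.132), which did not pass. Foxo6 did not pass either, at 0.63 (adjusted p = 0.128) with AAV-shA4 and 0.26 (adjusted p = 0.559) with AAV-shSCR. With AAV-shA4, Foxo6 was called in 1 of 8 settings and without untreated WT replicate 1 (0.93).

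From 9w to 25w in untreated WT mice, 4 of the 52 pathway genes tested were called, 1 higher and 3 lower. That is 7.69% of them, near the 5.27% called over all genes. Grb10 rose from 37.7, 39.2 and 39.0 CPM to 61.3, 53.0, 54.5 and 51.9 CPM, a change of 0.52 ± 0.0573 (adjusted p = 3.3e-06) without overlap. Igfbp1, a binding protein made mainly by liver, stood at 0.731, 0.805 and 1.37 CPM at 9w and at 0.263, 0.319, 0.418 and 0.490 CPM at 25w, a change of -1.39 ± 0.271 (adjusted p = 0.000945). Stc2 (-0.44, adjusted p = 0.0206) and Foxo6 (-0.92, adjusted p = 0.0298) were the other genes called, and each depended on single libraries. Stc2 was not called without untreated replicate 1 of 9w (-0.41), replicate 3 of 9w (-0.39), replicate 2 of 25w (-0.39) or replicate 3 of 25w (-0.39). Foxo6 was not called without replicate 2 of 9w (-0.81), replicate 3 of 9w (-0.93), or replicates 2 (-0.85), 3 (-0.79) or 4 (-0.86) of 25w. Atxn7, the gene that carries the expanded repeat, was higher at 25w by 0.28 (adjusted p = 0.00149), under the fold limit. At 25w Atxn7 ranged from 45.7 to 50.2 CPM in untreated WT mice, from 45.6 to 53.4 CPM in AAV-shSCR-treated and from 44.4 to 51.7 CPM in AAV-shA4-treated SCA7 mice, with log2 fold changes between the late groups from -0.04 to 0.03. Counts per gene do not separate the normal from the expanded allele. The study measured the lowering by shA4 on ATXN7 protein, which these RNA values do not show.

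Igfbp5 (ENSMUSG00000026185) lies on the minus strand of GRCm38 at chr1:72857932-72874884, next to Igfbp2 (ENSMUSG00000039323) on the plus strand at chr1:72824503-72852474. The pair faces each other with 3' ends 5457 bp apart, and of the pair Igfbp5 was called in SCA7 mice and Igfbp2 was not. Of the 6 protein-coding neighbours within 500 kb, 4 were tested at 25w and 0 were called by edgeR against WT, with 1 at an unadjusted p under 0.05. March4 was lower by less than the fold limit, at -0.24 (adjusted p = 0.00279) with AAV-shSCR and -0.20 (adjusted p = 0.00912) with AAV-shA4. Annotated transcripts of the 9 members held no CAG run longer than 3 repeats, beside 5 in the reference Atxn7. RefSeq promoters on GRCm38.p6 were present for 9 of 9 members, and the 250 bases before the start are shown for the 3 genes called in SCA7 mice, which moved in opposite directions, with motif matches in capitals. The start is that of RefSeq and can differ from the annotation used for the positions. The Igfbp6 window ended before the annotated Igfbp6 start at chr15:102144362 without adjoining it, and the Igfbp5 window overlapped the annotated start of Igfbp5. The motifs searched on both strands were TATAAA (the TATA box), GGGCGG (the GC box) and CACGTG (an E-box), which occur in 12.4%, 32.7% and 6.02% of 32851 promoter windows of the same length. The Igfbp5 window (chr1:72874866-72875115, minus strand, 58.8% GC) held none of these letters, the Igfbp6 window (chr15:102143936-102144185, plus strand, 49.6% GC) held TATAAA on the other strand 148 bases before the start, and the Igfbp4 window (chr11:99040994-99041243, plus strand, 69.2% GC) held TATAAA 28 bases before the start.
Igfbp5: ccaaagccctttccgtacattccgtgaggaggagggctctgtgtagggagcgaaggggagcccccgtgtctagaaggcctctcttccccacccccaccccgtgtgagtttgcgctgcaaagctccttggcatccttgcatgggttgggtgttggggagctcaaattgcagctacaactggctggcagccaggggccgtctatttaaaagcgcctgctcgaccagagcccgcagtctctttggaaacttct
Igfbp6: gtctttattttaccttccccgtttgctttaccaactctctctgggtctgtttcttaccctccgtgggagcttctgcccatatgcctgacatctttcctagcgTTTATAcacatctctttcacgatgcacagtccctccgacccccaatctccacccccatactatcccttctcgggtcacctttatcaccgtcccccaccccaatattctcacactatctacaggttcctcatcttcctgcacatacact
Igfbp4: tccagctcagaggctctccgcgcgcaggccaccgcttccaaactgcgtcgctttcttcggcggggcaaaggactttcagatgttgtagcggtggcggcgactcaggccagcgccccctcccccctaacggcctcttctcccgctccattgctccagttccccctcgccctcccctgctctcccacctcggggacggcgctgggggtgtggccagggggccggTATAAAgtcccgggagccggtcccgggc

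Across the 14 late libraries, the genes whose log2 CPM was most like that of Igfbp5 among 14862 were Kcna6 (r = 0.989), Fam107b (0.986), Sbk1 (0.985), Dner (0.984) and Ppp1r16b (0.984). These values describe likeness and carry no test, and they rest mostly on the gap between WT and SCA7 mice: all 5 genes were lower in both SCA7 groups, and after removal of group means the same r were 0.667, 0.616, 0.496, 0.618 and 0.407. Fam107b fell by 1.06, Sbk1 by 0.79, Ppp1r16b by 0.74, Dner by 0.50 and Kcna6 by 0.48 in AAV-shSCR-treated SCA7 mice. For Igfbp2 the closest gene was Trpv4, an ion channel gene expressed in choroid plexus, at 0.987 and still 0.987 without group means. Among the members, Igfbp5 and Igfbp6 had r = 0.733 over the late libraries and -0.12 without group means, and Igfbp5 and Igfbp7 had -0.822 and -0.473.

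Markers of cerebellar cell types were read beside these genes, 81 genes in 11 lists, and 0 of them were at 0 counts in any library. Between WT and SCA7 mice the PC list went the same way as Igfbp5. Of 8 markers, 5 were called lower in AAV-shSCR-treated and 4 in AAV-shA4-treated SCA7 mice against WT, with medians of -0.41 and -0.36. Over all genes 4.02% and 3.45% were called. By adjusted p alone, where 15.5% and 13.6% of all genes passed, the list had all 8 lower in each group, without overlap with WT. Over all genes tested, 16.8% and 13.4% did not overlap. Its summed level was 8880, 9950, 9230 and 9240 CPM in untreated WT mice at 25w, 7150, 6850, 7060, 6450 and 7180 CPM in AAV-shSCR-treated SCA7 mice, and 6500, 7110, 7610, 7370 and 6970 CPM in AAV-shA4-treated SCA7 mice. The early mice had 8790, 8200 and 8680 CPM in untreated and 9590, 8790 and 8670 CPM in AAV-shA4-treated WT mice. The WT mice were all above the SCA7 mice, as for Igfbp5, and the most abundant gene of the list was Itpr1. Within groups the sum and Igfbp5 did not always run together. Untreated WT replicate 2 of 25w had the highest sum of its group and the lowest Igfbp5. AAV-shSCR-treated replicate 4 had the lowest of both in its group. AAV-shA4-treated SCA7 replicate 3 had the highest of both, but the lowest sum was in replicate 1 and the lowest Igfbp5 in replicate 5. Pcp2, a defining PC marker, fell by 0.45 and 0.46, less than Igfbp5. Fewer cells of a type and less RNA per cell cannot be told apart in whole-tissue RNA, and the part of PC RNA in the Igfbp5 values was not tested.

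Of 7 oligodendrocyte markers, 3 were called lower in AAV-shSCR-treated SCA7 mice, 2 in AAV-shA4-treated SCA7 mice and 5 with age. Over all genes, 4.02%, 3.45% and 5.27% were called in these comparisons, and 0.0543% at 9w. The log2 fold changes of all 7 were negative with AAV-shSCR and with age, and those of 5 were negative and 2 positive with AAV-shA4. With AAV-shA4 in WT mice at 9w, all 7 markers were also negative (median -0.12). There 0 were called by edgeR, 3 were at an unadjusted p under 0.05 and 4 of the 7 markers did not overlap, where 16% of all genes did not. Their sum, led by Mbp, was 6650, 5610, 6510 and 5760 CPM in untreated WT mice at 25w, 4820, 4820, 4950, 4580 and 4110 CPM in AAV-shSCR-treated SCA7 mice, and 4560, 4860, 4970, 5200 and 4940 CPM in AAV-shA4-treated SCA7 mice. At 9w it was 8050, 7910 and 8200 CPM in untreated and 7580, 7450 and 7280 CPM in AAV-shA4-treated WT mice, so that every SCA7 mouse was below every WT mouse. Of 8 endothelial markers, Cldn5 was called lower and Emcn higher in both SCA7 groups. By adjusted p alone, 5 passed with AAV-shSCR (2 higher, 3 lower) and 6 with AAV-shA4 (3 higher, 3 lower), and 5 of the 8 did not overlap with WT in each. Over all genes, 15.5% and 13.6% passed by adjusted p alone (24.2% with age), and 16.8% and 13.4% did not overlap. Their sum, led by Flt1, was 262, 251, 261 and 227 CPM in untreated WT mice at 25w. It was 236, 238, 222, 234 and 214 CPM in AAV-shSCR-treated and 220, 212, 230, 237 and 232 CPM in AAV-shA4-treated SCA7 mice, where the groups overlapped. At 9w the endothelial sum was 266, 248 and 257 CPM in untreated and 239, 251 and 258 CPM in AAV-shA4-treated WT mice. Meningeal fibroblast markers, led by Col1a2, had 0 of 8 called in either SCA7 group against WT by edgeR (0 and 2 at an unadjusted p under 0.05) and 3 of 8 with age. Of 8 mural markers, which belong to the vessel wall, 1 (Kcnj8) was called lower with AAV-shSCR and 0 with AAV-shA4 by edgeR (3 at an unadjusted p under 0.05). With age, where Igfbp7 was called lower, 1 mural marker (Acta2) was called lower, 2 passed by adjusted p alone, both lower, and 6 of 8 had negative log2 fold changes. The mural sum, led by Rgs5, was 203, 210 and 191 CPM in untreated and 194, 220 and 211 CPM in AAV-shA4-treated WT mice of 9w. In untreated WT mice at 25w it was 206, 198, 203 and 174 CPM, which overlapped the untreated mice of 9w, and it was 170, 183, 183, 178 and 180 CPM in AAV-shA4-treated SCA7 mice and 188 CPM on average (SD 15.8) in the 5 AAV-shSCR-treated SCA7 mice. Of the endothelial markers, 0 were called with age by edgeR (3 at an unadjusted p under 0.05), and 2 passed by adjusted p alone (1 higher, 1 lower). Of 8 Bergmann glia and astrocyte markers, 0 were called by edgeR at 25w against WT, but all 8 had negative log2 fold changes in both SCA7 groups, with medians of -0.15 and -0.15, and 3 and 4 passed by adjusted p alone. Their sum, led by Slc1a3, was 3490, 3520, 3430 and 3490 CPM in untreated WT mice at 25w, 3250, 3030, 3120, 3020 and 3120 CPM in AAV-shSCR-treated SCA7 mice, and 3020, 3560, 3330, 3210 and 3060 CPM in AAV-shA4-treated SCA7 mice. The AAV-shSCR-treated mice were all below the WT mice, and the AAV-shA4-treated mice overlapped them. The early mice had 3660, 3530 and 3600 CPM in untreated and 3950, 3780 and 3870 CPM in AAV-shA4-treated WT mice. The granule cell, molecular layer interneuron, microglia and ependyma lists had 0 called by edgeR at 25w against WT. In that order, 2, 3, 0 and 0 of their genes were at an unadjusted p under 0.05 with AAV-shSCR and 5, 4, 1 and 0 with AAV-shA4, and 1, 3, 0 and 0 and then 1, 2, 0 and 0 passed by adjusted p alone. With AAV-shA4 at 9w, 1 of 6 ependyma markers (Ccdc153) was called higher, and all 6 had positive log2 fold changes with a median of 0.56. The ependyma sum, led by Foxj1, was 24.9, 22.4 and 30.7 CPM in untreated and 34.6, 34.6 and 38.1 CPM in AAV-shA4-treated WT mice of 9w, without overlap. It was 28.7, 22.9, 34.2 and 34.2 CPM in untreated WT mice at 25w, 27.8, 27.2, 22.2, 22 and 29 CPM in AAV-shSCR-treated and 33.4, 32.3, 26.9, 20.7 and 27.1 CPM in AAV-shA4-treated SCA7 mice. With age, 1 ependyma marker (Tmem212) was called higher, with 5 of 6 positive and a median of 0.64, and 1 of 6 granule cell markers (Slc17a7) was called lower, with 5 of 6 negative. All 8 microglia markers had positive log2 fold changes with age and with AAV-shA4 at 9w, where 0 were called by edgeR in either and 3 and 2 were at an unadjusted p under 0.05. The interneuron list had 0 called by edgeR in both, with 2 and 2 at an unadjusted p under 0.05. The part of oligodendrocytes, astrocytes, ependyma, microglia and vessels in the values of the binding proteins was not tested.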

How the data were processed

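Libraries were made with a stranded mRNA kit and sequenced by the authors, who trimmed reads with cutadapt 1.10, removed reads that Bowtie2 2.2.8 mapped to ribosomal RNA, aligned the rest to mm10 with STAR 2.5.3a and counted them per gene with HTSeq 0.6.1p1. The deposited counts were used as they are, and the strand setting was not stated. Protein-coding genes were tested in R 4.3.3 with edgeR 4.0.16 (TMM, filterByExpr with minimum count 10 and total 15, quasi-likelihood test without robust estimation), in separate fits of the 6 early libraries, the 14 late ones and, for age, all 20. P-values were adjusted by Benjamini-Hochberg over all genes tested. Alternatives were DESeq2 1.42.0, RLE size factors, no filter, only the groups compared, all 20 libraries, all genes of the table, robust estimation, the replicate number as a block, adjusted p alone, and each library left out. Positions and lengths come from the GENCODE annotation of GRCm38. Of the 55401 genes of the table, 260 were absent from that annotation. Permutations of log2(CPM + 0.1) used scipy 1.17.1. The named genes are the 9 members, a pathway list and marker lists, and the 5 genes most like Igfbp5 or the 1 most like each other member. Members and lists were chosen with earlier results of these data known. Counts per library limit precision for counting error only. No reads were aligned again.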

Additional observations from a re-analysis of the deposited data

Results flagged for a closer look

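Of 48 combinations of 16 genes and a late group, 3 held a mouse that stood apart from the others of its group, by a gap to its nearest neighbour that was large against the whole range of the group. Chance gives about 1 in 20 of them, so a count of 3 is near what chance gives. Igfbp5 was 117 CPM in replicate 4 of the AAV-shSCR-treated SCA7 mice, where the others lay between 135 and 139 CPM. That mouse also had the lowest summed level of PC markers of its group (6450 CPM). Igfbp7 was 23.2 CPM in replicate 2 of the same group, where the others lay between 19.8 and 20.7 CPM, and that mouse also had the most choroid plexus marker RNA of its group (2960 CPM). Foxo6 was 1.36 CPM in replicate 1 of that group, where the others lay between 0.737 and 0.878 CPM. The 3 values come from different mice.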

How the results depend on the processing

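The Igfbp5 decrease was called in 8 of 8 settings and in 14 of 14 fits that left out 1 library, in both SCA7 groups: -1.07 to -1.05 over settings and -1.09 to -1.02 without 1 library with AAV-shSCR, -0.93 to -0.91 and -0.96 to -0.89 with AAV-shA4. The difference between the SCA7 groups was 0.10 to 0.18 without 1 library and was never called. Of the members' fold changes under other settings, 339 kept direction and side of the threshold, 2 reversed and 1 came to be called. Without 1 library each, 591 kept both, 18 reversed and 3 came to be called. With adjusted p alone, the members called were 3 with AAV-shSCR against WT, 5 with AAV-shA4 and 2 with age, and pathway genes 11, 7 and 16, since the fold limit is dropped. Over all genes 15.5%, 13.6% and 24.2% passed that rule. DESeq2 called 2 pathway genes with AAV-shA4.

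The study's methods describe no pairing of mice by replicate number, and the main fits used none. Correlations of same-numbered mice, after removal of group means, ranged from -0.224 to 0.539. Some mice were closest to the same-numbered mouse of the other group and others were not, so these correlations do not settle whether the numbers pair mice. With the replicate number as a block, Igf1 with AAV-shSCR reversed to 0.0084, Igfbp1 with AAV-shA4 to 0.030 and Igfbp2 with age to -0.090, and pathway genes called were 2 with AAV-shA4 and 2 with age. For age the block fit tested 14875 genes, as many as the fit of only the groups compared, where the fit of all 20 libraries tested 15095. The block was thus not the only change behind the values with age. Igfbp5 under the block stayed called in both SCA7 groups.

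Without 1 library each, pathway genes called were 0 to 1 at 9w, 1 to 3 with AAV-shSCR, 1 to 2 with AAV-shA4 and 2 to 4 with age. The log2 ranges that crossed 0 were, with AAV-shSCR, Igf1 -0.080 to 0.015, Igf2r -0.0066 to 0.085, Igfbp1 -0.013 to 0.29, Igfbp2 -0.23 to 0.21 and Stc2 -0.16 to 0.0013. With AAV-shA4 they were Igfbp1 -0.17 to 0.14 and Igfbp2 -0.54 to 0.016, and between the SCA7 groups Igfbp6 -0.050 to 0.029 and Igfbp7 -0.016 to 0.070. At 9w they were Igfbp4 -0.40 to 0.18 and Pappa -0.31 to 0.15. With age they were Igfbp2 -0.10 to 0.38, Igfbp4 -0.38 to 0.20, Igfbp5 -0.00078 to 0.053, Igfbp6 -0.13 to 0.054 and Pappa -0.30 to 0.15. The cause of these reversals was not tested.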
